A study of Mus musculus with 6 samples.

Results

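The genes described here are 9 SOX transcription factors of the oligodendrocyte precursor cell (OPC) lineage: Sox2 (group SOXB1), Sox4 and Sox11 (SOXC), Sox5, Sox6 and Sox13 (SOXD), and Sox8, Sox9 and Sox10 (SOXE). They were chosen by name from 32049 target genes, and every enhancer-gene pair that named 1 of them as its target was taken, without regard to its values. All 9 genes were listed in both conditions, with 40 pairs in control OPCs (Ctr-OPCs) and 41 in OPCs treated with interferon gamma (IFNg-OPCs).

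SOX proteins bind DNA through a high-mobility-group domain that recognizes a short motif close to ACAAAG and bends the helix. In this lineage the SOXE proteins drive specification and, above all Sox10, the expression of myelin genes. The SOXD proteins lack a transactivation domain and hold back differentiation of precursors, SOXC proteins act in early neural precursors and are turned down as cells mature, and Sox2 maintains progenitors.

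All cells carried the genotype Sox10-Cre/RCE, with the strain labelled C57BL/6j although the reporter line came from a mixed background with CD1. In these mice a Sox10-driven Cre switches on a GFP reporter in the whole lineage, in the controls as in the treated cells. Brains of several early postnatal pups were pooled per preparation, and OPCs were taken either by sorting for Sox10-GFP or with beads against CD140a, the PDGF receptor alpha. The cultures were kept in proliferation medium with bFGF and PDGF-AA and, 24 h after passaging, were given either this medium without an addition (Ctr-OPCs) or 100 ng/mL IFN-γ in it (IFNg-OPCs). There were 3 H3K27ac-HiChIP libraries per condition, an assay that enriches ligated chromatin contacts of regions with this active histone mark, and 1 table of activity-by-contact (ABC) predictions for each condition.

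For each element the ABC model multiplies activity, a signal from chromatin accessibility and H3K27ac, by its contact with the promoter. The ABC score is this product divided by the sum over all elements of the gene, named here the gene total, so that a score is a share of its gene's own input. A pair with a score above 0.05 was counted as a connection. The labels assign 1 table to the 3 libraries of a condition, so no value has a replicate error, no difference was tested, and "past 1.5-fold" is a rule of size. The labels also name a single contact map for all 6 libraries, and whether both tables drew on it is not given in the sources used here. Contact values differed between the tables, and what a difference in contact stands for depends on this.

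The labelled cell type was checked on promoter activity, given as a quantile among all genes. The 7 OPC markers (Pdgfra, Cspg4, Ptprz1, Olig1, Olig2, Gpr17 and Sox10 itself) were all listed in both tables, with quantiles from 0.851 to 0.995 in Ctr-OPCs and from 0.815 to 0.994 in IFNg-OPCs. Markers of other cells were mostly listed too, at lower medians. The ranges of the neuron markers, up to 0.870 and 0.868, and of the microglia markers with IFN-γ, up to 0.825, overlapped that of the OPC markers. The medians were 0.739 for 3 and 0.694 for 4 of 4 markers of maturing oligodendrocytes (Mag was listed in IFNg-OPCs alone). They were 0.696 and 0.628 for 4 of 5 astrocyte markers (Aqp4 was in neither table). For microglia markers they were 0.621 for 3 and 0.614 for 4 of 5 (C1qa was in neither), and for 5 neuron markers 0.777 and 0.764. Fewer cells of a type and less signal per cell cannot be told apart in such bulk tables, and the part of other cells in the values below was not tested. Of the SOX genes, 8 of 9 had a promoter quantile of at least 0.8 in each condition, and Sox13 was at 0.674 and 0.778.

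Sequences of 6 leading elements are shown because the results turn on them: the highest-scoring element of Sox6 and Sox10 in Ctr-OPCs, that of Sox4, Sox11 and Sox13 in IFNg-OPCs, and the distal element of Sox9. Each line holds the central 300 bases of the element (GRCm38, plus strand), and none overlaps an annotated exon. Capitals mark the SOX core (ACAAAG or ACAATG, either strand). A gamma-activated site (TTCNNNGAA), the core of an interferon-stimulated response element (GAAANNGAA) and the AP-1 motif (TGANTCA) were also searched on both strands and had 0 matches in these 6 windows.
Sox6, chr7:116040085-116040384: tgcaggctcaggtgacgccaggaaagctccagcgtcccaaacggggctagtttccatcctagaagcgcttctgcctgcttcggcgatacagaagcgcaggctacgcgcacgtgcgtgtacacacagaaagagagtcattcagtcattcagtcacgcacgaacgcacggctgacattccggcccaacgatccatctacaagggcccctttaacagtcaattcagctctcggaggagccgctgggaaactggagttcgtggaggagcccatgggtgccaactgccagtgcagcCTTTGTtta
Sox4, chr13:28958212-28958511: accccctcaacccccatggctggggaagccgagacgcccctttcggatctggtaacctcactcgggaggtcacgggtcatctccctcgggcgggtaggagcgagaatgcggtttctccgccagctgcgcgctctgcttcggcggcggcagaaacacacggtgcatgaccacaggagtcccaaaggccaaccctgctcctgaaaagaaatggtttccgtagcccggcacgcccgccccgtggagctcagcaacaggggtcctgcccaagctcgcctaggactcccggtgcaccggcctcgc
Sox11, chr12:27344064-27344363: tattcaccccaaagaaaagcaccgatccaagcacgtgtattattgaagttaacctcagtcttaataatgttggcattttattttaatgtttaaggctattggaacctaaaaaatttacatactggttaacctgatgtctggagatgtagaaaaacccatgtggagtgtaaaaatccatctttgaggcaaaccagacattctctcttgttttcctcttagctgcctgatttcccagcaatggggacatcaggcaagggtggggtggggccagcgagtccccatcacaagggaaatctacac
Sox10, chr15:79193265-79193564: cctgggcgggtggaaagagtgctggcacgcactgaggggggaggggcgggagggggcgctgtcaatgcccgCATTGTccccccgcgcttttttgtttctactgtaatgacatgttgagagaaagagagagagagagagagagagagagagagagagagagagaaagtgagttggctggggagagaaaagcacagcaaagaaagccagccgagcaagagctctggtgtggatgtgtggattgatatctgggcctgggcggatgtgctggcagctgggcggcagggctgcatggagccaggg
Sox9, chr11:113188365-113188664: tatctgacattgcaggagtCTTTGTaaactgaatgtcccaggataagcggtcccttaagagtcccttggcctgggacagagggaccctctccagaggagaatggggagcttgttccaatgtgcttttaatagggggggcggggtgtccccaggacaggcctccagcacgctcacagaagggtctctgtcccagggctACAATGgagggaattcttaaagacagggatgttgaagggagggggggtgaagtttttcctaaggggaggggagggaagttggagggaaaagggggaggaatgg
Sox13, chr1:133434456-133434755: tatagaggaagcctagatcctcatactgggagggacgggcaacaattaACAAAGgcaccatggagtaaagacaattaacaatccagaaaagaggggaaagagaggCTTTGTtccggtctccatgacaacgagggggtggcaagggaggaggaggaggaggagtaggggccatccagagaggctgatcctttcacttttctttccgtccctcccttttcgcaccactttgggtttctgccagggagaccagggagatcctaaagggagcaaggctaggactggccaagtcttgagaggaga
The windows of Sox9 and Sox13 held 2 SOX cores each, those of Sox6 and Sox10 held 1, and those of Sox4 and Sox11 held none.

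Over the central 500 bases of all elements, a SOX core lay in 25 of the 40 SOX gene elements of Ctr-OPCs (62.5%, against 52.7% of all elements) and in 22 of 41 of IFNg-OPCs (53.7% against 55.1%). The largest number, 5, was in an element 6.79 kb upstream of Sox8. A gamma-activated site lay in 6 of 40 and 6 of 41 SOX gene elements, beside 13.9% and 15.2% of all elements. The response element core lay in 4 and 8, beside 13.7% and 17.0% of all, and the AP-1 motif in 2 and 2, beside 14.5% and 16.2%. These are matches to short strings, given as a description with no test, and a window without a match says nothing about binding.

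Each gene had listed elements, and 3 of 40 SOX gene pairs passed the cut-off in Ctr-OPCs and 6 of 41 in IFNg-OPCs. Over all genes 11648 of 66637 pairs and 12410 of 71478 pairs passed it. There were 3 connections in Ctr-OPCs, for Sox4 (2) and Sox6 (1), and 6 in IFNg-OPCs, for Sox4 (3), Sox6 (2) and Sox11 (1). Thus 2 of 9 and then 3 of 9 genes had a connection, beside 34.3% and 35.6% of all target genes and 29.7% and 31.2% of protein-coding target genes with a promoter quantile of at least 0.8. The number was higher with IFN-γ for 3 genes and lower for none. Among 12779 genes with a connection in either table, it was higher for 37.4% and lower for 32.5%. Of the 9 SOX genes, 6 had none in either condition, Sox10 among them.

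Many scores lay close to the cut-off. The highest for Sox10 was 0.0495 in Ctr-OPCs, and for Sox2 it was 0.0492 in IFNg-OPCs, both just under 0.05. Of the 3 connections found with IFN-γ alone, that of Sox4 scored 0.0513 (0.0417 in Ctr-OPCs), that of Sox6 scored 0.0558 (0.0425), and that of Sox11 scored 0.0591 and was not listed in Ctr-OPCs. With equal numbers of top-scoring pairs from each table, the numbers were 3 and 5, as the third Sox4 connection was lost. The direction did not hold at other limits, with 1 and 0 above a score of 0.1 and 16 and 16 with the power-law score, and for Sox6 the difference was -1 under both.

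**Figure D1:**
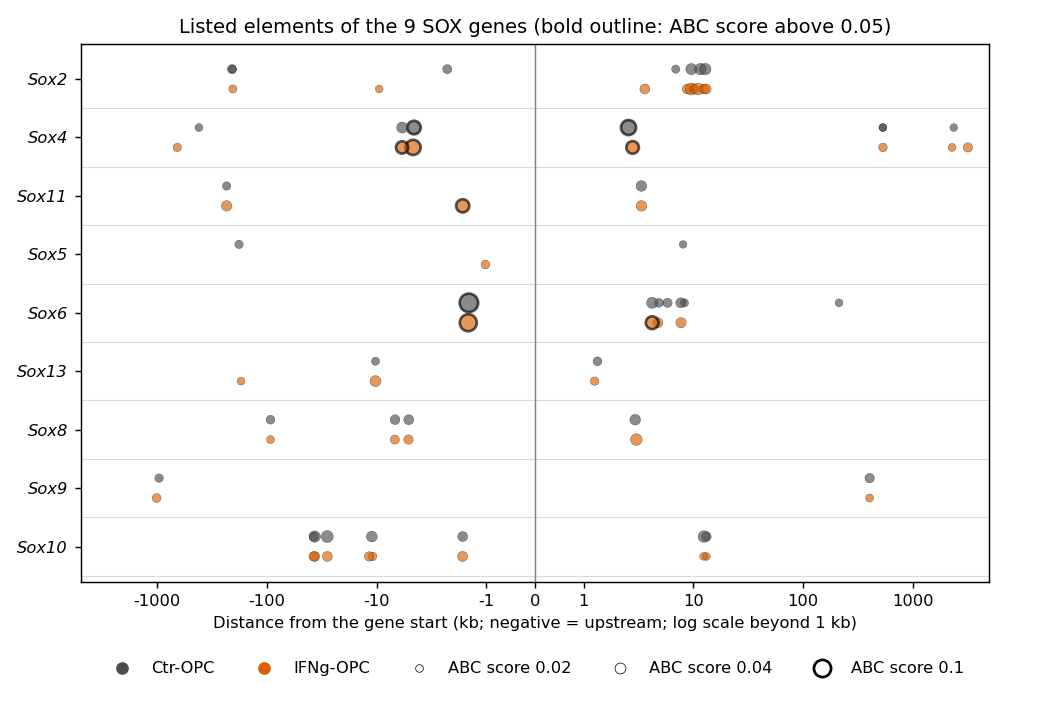
Each circle is 1 listed element of a SOX gene, placed by its distance from the gene start in kb (negative values are upstream, log scale beyond 1 kb). Circle area gives the ABC score, grey marks Ctr-OPCs and orange IFNg-OPCs, and bold outlines mark scores above 0.05, which are seen for Sox4, Sox6 and Sox11 and lie within 6 kb of the start.

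Of the 9 genes, Sox10 and Sox8 had the largest input. Sox10, the regulator of myelin genes and the source of the reporter's Cre, had a gene total of 3.13 in Ctr-OPCs and 2.65 in IFNg-OPCs. Only 14 of 25779 target genes in Ctr-OPCs and 22 of 26591 in IFNg-OPCs had a higher total. Its paralog Sox8 had 2.90 and 2.46, with 25 and 40 genes above it. The totals of Sox10 lay at the 99.9th percentile in both conditions and those of Sox8 at the 99.9th and 99.8th, while neither gene had a single element above a score of 0.05. The Cre transgene carries Sox10 regulatory sequence, and whether this adds reads at the Sox10 locus was not tested. Sox9, which acts earlier in glial specification and in astrocytes, had a total of 1.37 and 1.07, below those of Sox2 (1.55 and 1.60) and Sox6 (1.54 and 1.56).

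The listed part of the Sox10 input was spread over several elements, most of them strong. Sox10 had 7 listed elements in Ctr-OPCs and 8 in IFNg-OPCs, between 1.64 and 37.5 kb from its start. Their summed scores came to 27.3% and 23.0% of the total. The activity of 6 of the 7 Ctr-OPC elements ranked above the 96th percentile of all elements. An upstream group of 3 elements lay 28.2, 36.6 and 37.5 kb away in Gm10863, a transcript that also had all 15 Sox10 pairs of the tables as its own. The remaining 72.7% and 77.0% of the total lay in the promoter itself and in elements below the listing limit of 0.02, which cannot be told apart here.

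All 7 Ctr-OPC elements of Sox10 were matched in IFNg-OPCs, and 6 were less active there. The element whose sequence is shown, 28.2 kb upstream, had an activity of 6.44 in Ctr-OPCs and 4.64 in IFNg-OPCs, and its score was 0.0495 and 0.0342. The most active, 36.6 kb upstream, had 6.91 and 5.37, and its neighbour at 37.5 kb had 4.47 and 4.68, the 1 element with a higher value. Downstream, an element 12.5 kb away had 6.57 and 3.84 and an element 13.2 kb away had 4.58 and 4.12. The first of these was 755 bp long in Ctr-OPCs and 500 bp in IFNg-OPCs, so that part of its difference may lie in how far the element was drawn, which was not tested. Over the 4 Sox10 elements of equal length the log2 ratios of activity were -0.15, -0.40, -0.37 and 0.07.

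Contact with the Sox10 promoter was also lower at most of these elements. Adjusted contact was 0.0217 in Ctr-OPCs and 0.0138 in IFNg-OPCs for the downstream pair of elements, which share a 5 kb bin and so a single value. It was 0.0241 and 0.0195 at 28.2 kb, and 0.0199 and 0.0169 for the pair at 36.6 and 37.5 kb. Nearest to the gene, 1.64 kb upstream, it was higher with IFN-γ, at 0.0618 and 0.0711.

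Sox8 kept its 4 elements in both conditions. The highest-scoring one, over its coding exon and UTR 2.95 kb downstream of the start, had an activity of 2.69 and 2.70 and a score of 0.0391 and 0.0461. The others lay 5.09, 6.79 and 92.9 kb upstream and were each less active with IFN-γ: 1.71 and 1.35, 1.64 and 1.29, and 5.37 and 3.97. Contact differed little, with log2 ratios from -0.10 to 0.00. All 8 Sox8 pairs of the tables were also listed for 2810468N07Rik and 7 of them for Lmf1.

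Sox9 had no listed element within 15 kb, unlike the other 8 genes. In each condition it had 2, and their scores summed to 5.50% and 4.90% of its total. The element in an intron of 2610035D17Rik, 406 kb downstream, was among the most active elements of either table, at the 99.9th and 99.6th percentile, with an activity of 6.58 in Ctr-OPCs and 5.02 in IFNg-OPCs. Its contact was 0.00627 and 0.00471 and its score was 0.0302 and 0.0220, so both terms were lower with IFN-γ. On the upstream side an element 964 kb away was listed in Ctr-OPCs and another 1016 kb away in IFNg-OPCs, with contacts 7.87 and 10.8 times the value that the model's power law of distance gives. The Sox9 total differed most of the 9, with a log2 ratio of -0.35 that lay at the 1.94th percentile of 20321 genes listed in both tables.

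Among the SOXD genes, which restrain differentiation, Sox6 had the strongest single element of all 9 genes. The element 1.44 kb upstream of its start, in an intron of 1110004F10Rik, scored 0.117 in Ctr-OPCs and 0.0987 in IFNg-OPCs. Its activity was 3.85 and 2.84, lower with IFN-γ, while its contact was 0.0467 and 0.0544, higher with IFN-γ. The second connection with IFN-γ, 4.21 kb downstream, had an activity of 3.01 and 2.84 and a contact of 0.0217 and 0.0308.

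Most Sox6 elements were at other annotated starts of Sox6. Of its 7 elements in Ctr-OPCs, 6 lay within 1 kb of a Sox6 transcript start other than the single one that the model used, as did 3 of 4 in IFNg-OPCs. This held for none of the 33 and 37 elements of the other 8 genes. The element listed at 214 kb in Ctr-OPCs lay 0.457 kb from such a start, had an activity of 5.64 (99.6th percentile) and a score of 0.0209. It was still listed in IFNg-OPCs for other genes, with an activity of 3.33, and no longer for Sox6. Sox6 thus had fewer listed pairs with IFN-γ (7 and 4) but 1 more connection. All 11 Sox6 pairs of both tables were also pairs of 1110004F10Rik and of the antisense transcript Sox6os, and the 3 connections were also connections of 1110004F10Rik.

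Sox5 and Sox13 had few listed elements. Sox5, with a gene that spans much of 1 Mb, had 2 listed elements in Ctr-OPCs (8.08 and 180 kb from the start, activity 0.912 and 1.80) and 1 other in IFNg-OPCs (1.02 kb, activity 0.502), and none matched. The latter was the only SOX gene element in either table below the median activity of all elements, at the 22.4th percentile. At Sox13 the element 10.2 kb upstream, whose sequence is shown, had an activity of 1.30 in Ctr-OPCs and 2.40 in IFNg-OPCs, 1.84-fold higher, and its score was 0.0223 and 0.0414. It was 500 bp long in both tables, and its only listed target was Sox13. It was the 1 matched pair of the SOX genes whose activity was past 1.5-fold higher with IFN-γ.

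The SOXC genes had the smallest totals, and their contact was higher with IFN-γ at all 6 matched pairs. Sox4, an inhibitor of oligodendrocyte maturation, had a total of 0.574 in Ctr-OPCs and 0.617 in IFNg-OPCs, and Sox11, known from neuronal precursors, had 0.643 and 0.738. Upstream of Sox4 the element 4.56 kb away, whose sequence is shown, had an activity of 2.81 and 2.36 and a score of 0.0623 and 0.0782, and its neighbour at 5.84 kb had 1.89 and 1.55. Their shared contact was 0.0127 and 0.0204, 1.61-fold higher with IFN-γ. In the Sox4 UTR, 2.57 kb downstream, activity was 2.06 and 1.51 with a contact of 0.0217 and 0.0220, and the score was 0.0775 and 0.0540. The element there was 938 bp long in Ctr-OPCs and 500 bp in IFNg-OPCs.

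Sox11 had an element only with IFN-γ, 1.64 kb upstream of its start. It had an activity of 1.43, a contact of 0.0306 and a score of 0.0591, and no Ctr-OPC element of any gene overlapped it. In the Sox11 UTR, 3.36 kb downstream, activity was 1.58 and 1.25 with a contact of 0.0159 and 0.0227. The distal element 233 kb upstream had a higher value of both terms with IFN-γ, 2.61 and 3.65 in activity and 0.00601 and 0.00764 in contact, and its score was 0.0244 and 0.0378. It was 1 of 3 matched elements past 100 kb, and the score of neither of the others was past 1.5-fold higher.

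Sox2, a gene of progenitors that lies inside Sox2ot, had all its listed elements in introns of Sox2ot, and these held less of its total than the promoter and unlisted elements did (76.7% and 70.1%). There were 7 elements in Ctr-OPCs and 9 in IFNg-OPCs, and 3 and 5 of them, from 9.61 to 13.1 kb downstream of the gene start, shared a 5 kb bin. Activity of the 3 matched elements was 3.36, 3.55 and 3.51 in Ctr-OPCs and 2.48, 2.35 and 1.72 in IFNg-OPCs. The bin's contact was 0.0197 and 0.0317, 1.61-fold higher with IFN-γ. Their scores were 0.0428, 0.0452 and 0.0447 against 0.0492, 0.0466 and 0.0341, all below the cut-off. In IFNg-OPCs the stretch was cut into more and shorter elements, as a 1366 bp and a 905 bp element of Ctr-OPCs were matched to 746 bp and 500 bp, and activities of single elements are therefore not strictly alike in meaning.

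Across the 27 matched pairs of the SOX genes, activity was lower with IFN-γ in 22. The median log2 ratio was -0.35, beside -0.09 over 29858 matched pairs of all genes, of which 59.9% were lower. Among the 11943 matched pairs of all genes with the highest mean activity, which hold 18 of the 27, the medians were -0.39 for the SOX genes and -0.10 for all. A value past 1.5-fold was seen in 1 pair upward and 4 downward, beside 7.48% and 11% of all matched pairs. The 4 were the Sox2 pairs with unequal lengths and the Sox10 elements 12.5 and 11.0 kb away, which were also longer in Ctr-OPCs. In the 16 pairs of equal length the median was -0.31 (-0.08 for all genes), 13 were lower, and none was past 1.5-fold lower. None of the 27 elements was longer in IFNg-OPCs and 11 were longer in Ctr-OPCs, beside 16.1% and 25.9% of all matched pairs.

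Contact differed in direction between the SOXE genes and most of the others. It was lower with IFN-γ in 11 of 12 matched SOXE pairs (median log2 ratio -0.24). Of these 12, 7 were of Sox10 and 1 of Sox9, and the 4 of Sox8 differed little (-0.10 to -0.002). Contact was higher in 13 of 15 pairs of the other groups (median 0.51), the exceptions being both Sox13 pairs. Pairs in 1 bin share a value. Over distinct bins it was lower in 8 of 9 for SOXE and higher in 8 of 10 for the rest, whose median was then 0.34. The SOXD genes were mixed, with 2 bins lower (Sox13) and 2 higher (Sox6), Sox2 gave a single bin, and Sox5 had no matched pair. Over all genes 44.0% of pairs were lower, with a median of 0.05. Past 1.5-fold there were 5 pairs upward (3 of Sox2 and 2 of Sox4, in 2 bins) and 2 downward (Sox10, in 1 bin), beside 12% and 8.33% of all matched pairs.

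**Figure D2:**
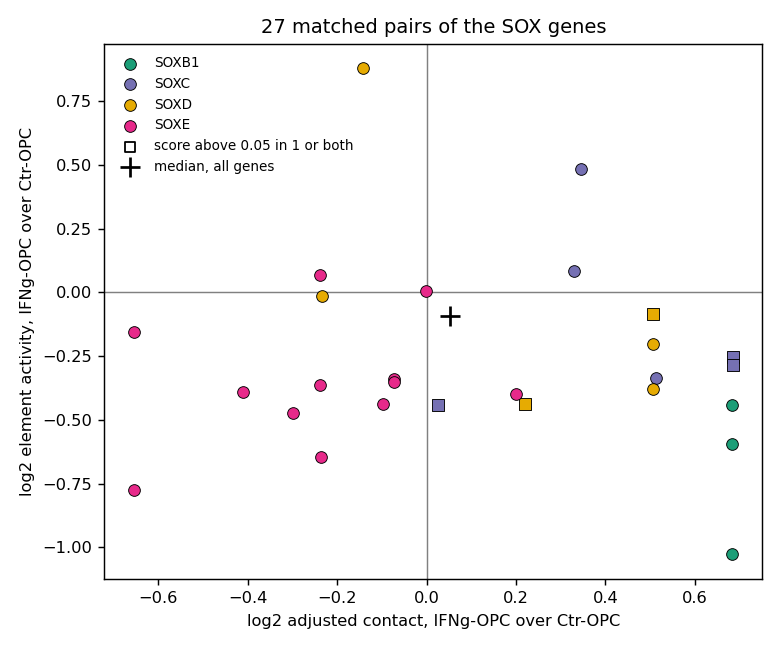
Each point is a matched pair of a SOX gene, by its log2 ratio (IFNg-OPCs over Ctr-OPCs) of adjusted contact (x) and element activity (y), coloured by group; squares are connections in at least 1 condition and the cross is the median of all genes. Most points lie below 0 in activity, with SOXE points mainly to the left in contact and SOXB1 and SOXC points to the right.

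The 5 matched pairs that were connections had a lower activity (median log2 ratio -0.28) with a higher contact (median 0.51). A pair entered this set by a score above 0.05 in either condition. The Sox4 pair at 5.84 kb and the Sox6 pair at 4.21 kb entered through IFNg-OPCs alone, where their contact was higher. The higher contact is therefore in part built in by the selection. Over matched connections of all genes 57.3% were lower in activity (median -0.07) and 44.7% were lower in contact (median 0.05). The contact of 2 of the 5 was 1 shared bin value, and over distinct bins the median was 0.36. Over all 27 SOX gene pairs it was 0.025. None was past 1.5-fold in activity, beside 10.3% upward and 12% downward of 11517 matched connections. In contact 2 were past 1.5-fold upward and none downward, beside 14.6% and 10.7%. At all 3 connections found in Ctr-OPCs the element and gene were again connected with IFN-γ, beside 49.5% over all genes (Wilson 95% interval for 3 of 3, counting error only, 43.9 to 100%). Of the 6 with IFN-γ, 3 were shared (interval 18.8 to 81.2%, beside 46.3% over all genes).

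No SOX gene had a gene total past 1.5-fold in either direction (0.615% of 20321 genes were past it upward and 0.118% downward). Log2 ratios were -0.24 for Sox8 and Sox10, -0.35 for Sox9 and -0.15 for Sox13, and they were 0.03 for Sox6, 0.04 for Sox2, 0.10 for Sox4, 0.12 for Sox5 and 0.20 for Sox11. The median over all genes was -0.07. All 3 SOXE genes thus lay below it, at the 10.6th percentile (Sox8), the 10.1st (Sox10) and the 1.94th (Sox9), and Sox11 lay at the upper end, at the 90.01st.

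Setting contact by distance alone separated activity from measured contact. With the model's power law in place of measured contact, totals were lower with IFN-γ for 7 of 9 genes, the exceptions being Sox5 (0.10) and Sox11 (0.06), and for 69.0% of all genes (median -0.08), so that this number was near the background. Sox2, Sox4 and Sox6 went from 0.04, 0.10 and 0.03 to -0.25, -0.16 and -0.20. The gap between the log2 ratios of both totals was 0.30, 0.26 and 0.23 for these 3 genes, at the 97.7th, 96.6th and 95.05th percentile of all genes. For Sox8, Sox9 and Sox10 it was -0.04, -0.01 and -0.01. It was as small for Sox5 (0.02) and Sox13 (-0.05), and for Sox11 it was 0.14.

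**Figure D3:**
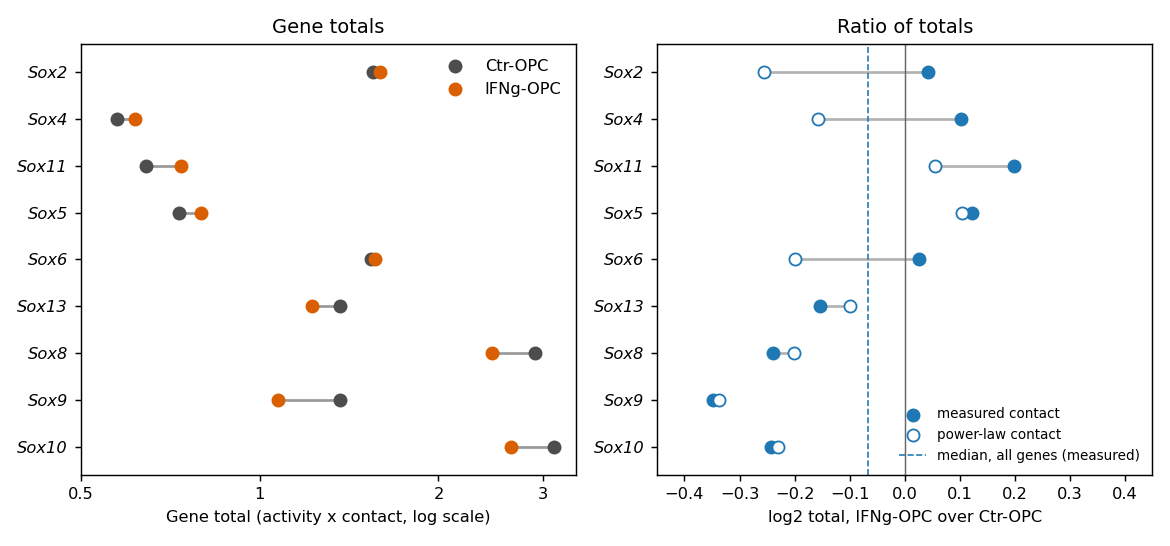
Left, gene totals (activity times contact, arbitrary units, log scale) of the 9 SOX genes in Ctr-OPCs (grey) and IFNg-OPCs (orange). Right, log2 ratio of the totals with measured contact (filled) and power-law contact (open), with the median of all genes as a dashed line; the filled and open points stand far apart for Sox2, Sox4 and Sox6 and close together for Sox5, Sox13 and the SOXE genes.

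The share of the total in listed elements differed more between the genes than between the conditions. It was 23.3% and 29.9% for Sox2, 26.4% and 28.4% for Sox4 and 29.4% and 22.5% for Sox6. It was 13.2% and 12.6% for Sox8, 6.34% and 13.5% for Sox11, 4.88% and 8.71% for Sox13 and 4.42% and 2.62% for Sox5. The median over target genes was 7.51% and 7.91%.

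**Figure D4:**
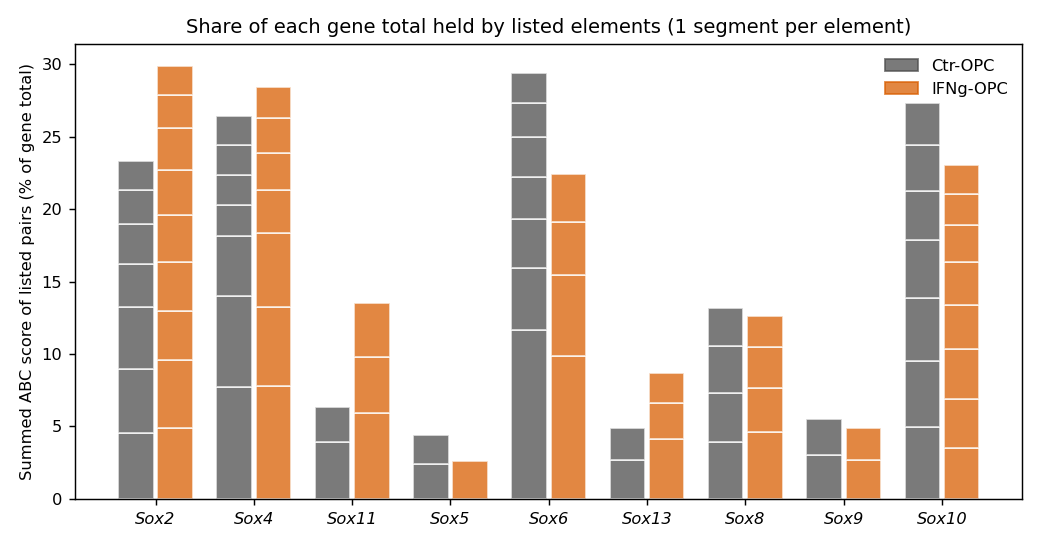
Bars give the summed ABC score of the listed elements of each SOX gene in percent of its gene total, with 1 segment per element, for Ctr-OPCs (grey) and IFNg-OPCs (orange). Sox2, Sox4, Sox6 and Sox10 are above 20% in both conditions and Sox5 and Sox9 stay below 6%.

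The elements stood out in activity and in the number of genes they were listed for. The median activity percentile was 94.9 in Ctr-OPCs and 91.0 in IFNg-OPCs, and all 40 and 40 of 41 were above the median element. Only 5 in each table, 12.5% and 12.2%, had a single target gene, beside 59.9% and 60.3% of all elements. An element listed for many genes counts more than once among pairs, and a distant element needs a high activity or contact to be listed, so these shares describe the listed pairs.

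Distances were shorter than those over all genes, with more pairs nearby. The medians for Ctr-OPCs and IFNg-OPCs were 10.6 and 10.2 kb, beside 15.1 and 15.8 kb over all pairs. Within 15 kb lay 62.5% and 68.3%, beside 49.8% and 49.1%. Past 100 kb lay 11 pairs of 6 genes and 9 pairs of 5 genes (27.5% and 22.0%, beside 25.2% and 25.1%). The farthest pairs were of Sox4 with intergenic elements 2378 kb downstream in Ctr-OPCs and 3203 and 2296 kb downstream in IFNg-OPCs, all below a score of 0.03.

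Close to the SOXC genes contact was low for the distance. All 4 SOXC pairs within 15 kb in Ctr-OPCs and all 5 in IFNg-OPCs were below the 10th percentile of all pairs in the same distance range. Contact there was 0.0930 to 0.165 times the power-law value in Ctr-OPCs and 0.155 to 0.238 times in IFNg-OPCs. Low values were not particular to SOXC in Ctr-OPCs, where 4 of 9 SOXD pairs (3 of Sox6 and 1 of Sox5) and 1 of 5 Sox2 pairs were below this percentile too, and none of 7 SOXE pairs. In IFNg-OPCs this held for none of 7 SOXD and 8 Sox2 pairs and for 1 of 8 SOXE pairs. Across all 9 genes the median within 15 kb was 0.306 and 0.315, beside 0.382 and 0.395 over all pairs. Past 100 kb it was 1.45 and 3.65, beside 1.24 and 1.56. Of the SOX gene pairs, 1 lay past 1000 kb in Ctr-OPCs and 3 in IFNg-OPCs. Over all pairs the ratio to the power law rose with distance, so these medians cover unlike distances.

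**Figure D5:**
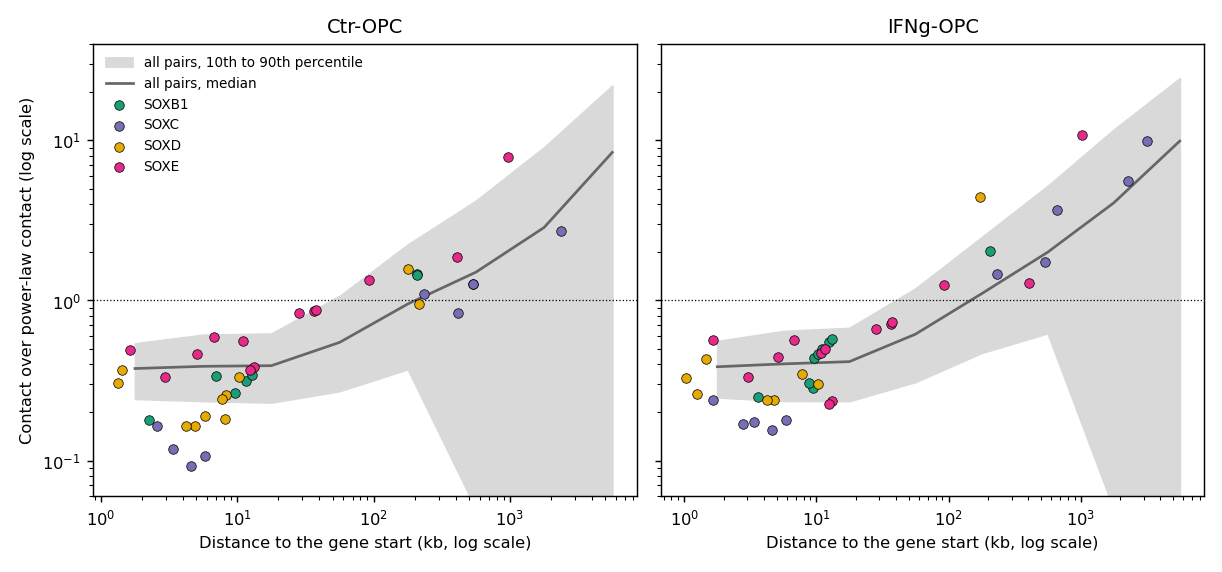
Contact divided by power-law contact (log scale) against the distance to the gene start in kb (log scale), in Ctr-OPCs (left) and IFNg-OPCs (right). Points are the pairs of the SOX genes by group, and the band and line are the 10th to 90th percentile and the median of all pairs, with a 10th percentile of 0 drawn at the foot of the axis; the SOXC points within 15 kb lie below the band.

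For some pairs listed in 1 condition alone, the element was listed in the other condition too, for other genes. Of 13 such pairs in Ctr-OPCs, 8 had an element that was still in the IFNg-OPC table, and of 12 in IFNg-OPCs, 7 had one in the Ctr-OPC table. All 13 had scores below 0.03, as did 9 of the 12. The shares over such pairs of all genes were not computed, so these counts only describe the SOX gene pairs. In all, 67.5% of the SOX gene pairs of Ctr-OPCs and 70.7% of those of IFNg-OPCs overlapped a pair of the other table, beside 45.8% and 42.8% over all genes.

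Of 10 other SOX genes, 8 were listed, with 6 connections in Ctr-OPCs and 7 in IFNg-OPCs. The number was higher for Sox12 (2 and 3) and Sox18 (0 and 1) and lower for Sox21 (2 and 1), which acts in neural progenitors. Of 13 partners and targets of SOX proteins in the lineage, all were listed in both tables, with 19 connections in Ctr-OPCs and 17 in IFNg-OPCs. The number was lower for 3: Myrf, a myelin regulator downstream of Sox10 (1 and 0), Erbb3, a neuregulin receptor (2 and 1), and Cspg4, the NG2 proteoglycan of OPCs (3 and 2). It was higher for Olig2 alone (2 and 3). The median log2 ratio of the total was -0.09 for the other SOX genes listed in both tables and -0.09 for the partners and targets. Past 1.5-fold was 1 gene, Zfp488 (0.68). It had 2 listed pairs in Ctr-OPCs and 1 in IFNg-OPCs, and the log2 ratio of its power-law total was -0.18.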

How the data were processed

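Per the study's methods and the submitters' processing notes, HiC-Pro mapped the H3K27ac-HiChIP reads to mm10 and removed duplicates. The authors ran the ABC model for each condition, with activity from bulk ATAC-seq plus CUT&RUN for H3K27ac. The deposited activity is a signal, the contacts and their product with activity are scores of no fixed range, and the ABC score, power-law score and promoter quantile were deposited as fractions. Distances were deposited in bp. Whether the conditions were brought to a common scale is not given in the sources used here. The labels assign 1 table to the 3 libraries of a condition, and read depth is unknown. The tables begin at a score of 0.02, a promoter quantile of 0.4, and list no pair of a gene with its own promoter.

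Target genes were named with GENCODE M21 (GRCm38), and all 9 had the annotated start. The gene total was recovered as activity times contact over score. Pairs were matched by mutual best overlap (at least 1 bp, same gene). Sequences came from RefSeq GRCm38.p6. The members and lists were chosen with earlier results of these data known, and some genes of the lists are not reported here. Genes were named as members, elements as the highest-scoring, the farthest or those above 0.05 in 1 condition. Matching and ratios were tested on simulated data. Alternatives are given in the closing section. Tools were NumPy 2.4.6 and pandas 2.3.3 on Python 3.11.15, with intervals from SciPy 1.17.1 and figures from matplotlib 3.10.9.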

Additional observations from a re-analysis of the deposited data

How the results depend on the processing

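No paired analysis was possible because the 3 libraries of a condition have 1 table between them, which also keeps any library from being left out. The number of connections of the 9 SOX genes was 3 in Ctr-OPCs and 6 in IFNg-OPCs, 40 and 41 over all deposited pairs, 1 and 0 above a score of 0.1, and 16 and 16 with the power-law score. For Sox6 the gain of 1 became a difference of -3 over all deposited pairs, -1 above 0.1 and -1 with the power-law score. Above 0.1 the share of shared connections in Ctr-OPCs was 0% (1 connection), and no share could be given for IFNg-OPCs. Median distances of 2.57 and 3.51 kb became 10.6 and 10.2 kb over all pairs and 1.44 kb above 0.1 in Ctr-OPCs. The log2 ratio of activity was -0.28 over connections, -0.35 over all matched pairs, -0.31 over those of equal length (an alternative chosen after seeing the data) and -0.18 after dividing by the table's median. That of contact was 0.51, 0.025 over all matched pairs, 0.53 before the pseudocount, and 0.36 with 1 value per bin, also chosen after seeing the data. The median log2 ratio of gene totals was 0.03, 0.074 after scaling by the median total, -0.30 over listed pairs alone and -0.20 for the power-law total, added after seeing the data. Over listed pairs Sox11 went from 0.20 to 1.29, Sox5 from 0.12 to -0.64 and Sox13 from -0.15 to 0.68, each then past 1.5-fold. Sox6 went from 0.03 to -0.36. The SOXE totals were lower with IFN-γ under each of these settings. Causes other than the settings' own construction were not tested.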

Other observations

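Transcripts that overlap the SOX genes were also listed as target genes. Sox2ot, the long transcript around Sox2, had 4 pairs in Ctr-OPCs and 2 in IFNg-OPCs and totals of 0.760 and 0.638, a log2 ratio of -0.25, where Sox2 had 0.04. Sox6os, antisense to Sox6, had 2 connections and 1, and totals of 1.56 and 1.57. Sox5os1 had 1 connection in Ctr-OPCs, with a score of 0.0517, and none in IFNg-OPCs, and its total had a log2 ratio of 0.04. All Sox6 elements were also listed for Sox6os and some Sox2 elements for Sox2ot, whereas no Sox5 element was listed for Sox5os1.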
